A study of Homo sapiens with 10 samples.

Results

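RNA for 10 genes that restrain ERK signalling was compared between the microvesicles shed by K562 cells and the cells themselves. The genes are the dual-specificity phosphatases DUSP1, DUSP4, DUSP5 and DUSP6, the Sprouty genes SPRY1, SPRY2 and SPRY4, their relatives SPRED1 and SPRED2, and NF1. Every probe set whose platform gene symbol was 1 of these names was taken, which gave 21 of the 54613 probe sets tested, between 1 and 3 for each gene. Another 9 probe sets carry the symbols of NF1 and of its pseudogene NF1P9 together. They cannot be assigned to NF1 alone and were kept out of all counts unless stated.

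The microvesicle group held 5 arrays of RNA from microvesicles released by the parental K562 line, and the cell group held 5 arrays of RNA from cultured K562 cells. K562 is an established human chronic myeloid leukaemia line with the BCR-ABL1 fusion, with no treatment or genetic change named in the labels for either group. Trizol extraction was done in 5 separate experiments, and the RNA was turned into biotin-labelled cRNA for Affymetrix arrays. In such bulk RNA, fewer vesicles or cells that carry a transcript and less of it in each cannot be told apart. Values are log2 expression values made by the authors with RMA, a method that subtracts background, scales the arrays to each other and reduces each probe set to 1 value. The deposited values of the 2 groups did not share a distribution: the upper quartile was 5.50 to 5.63 on microvesicle arrays and 6.07 to 6.15 on cell arrays, while the medians were 4.22 to 4.28 and 4.08 to 4.12. The cause of this was not tested, and changes are therefore also given under other scalings where these move them. Because arrays are scaled, a difference in total RNA between microvesicles and cells is not visible in them. Replicates are numbered preparations, and the labels do not say that equal numbers share a culture, and the p-values below cover only the variation among these 10 RNA samples.

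Signals from receptors or from an active tyrosine kinase such as BCR-ABL1 pass through RAS, RAF and MEK to the kinase ERK, which enters the nucleus and induces early genes. Some of the brakes on the same route, not all, are among the genes so induced. DUSP proteins remove phosphate from MAP kinases, Sprouty proteins interfere with the route between receptors, RAS and RAF, SPRED proteins bind RAS and bring neurofibromin to the membrane, and neurofibromin, the NF1 product, switches RAS off by speeding its GTP hydrolysis.

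In microvesicles, 4 members had a probe set at least 2-fold lower than in cells: DUSP1, SPRED1, SPRY2 and SPRED2, each in the probe set of the gene with the highest mean over the 10 arrays (called the brightest below). SPRED1 was the 1 gene in which all 3 probe sets fell. DUSP1 and SPRY1 each had a second probe set that moved the other way. DUSP4, DUSP5, DUSP6 and NF1 lay at low to middle values and SPRY4 above the array median. The brightest probe set of each of these genes did not pass the test.

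A probe set was called where limma's adjusted p was under 0.05. Of the 21 member probe sets 7 were lower and 4 higher in microvesicles, and 10 were not called. Over all probe sets 62.4% were called, 27.0% lower and 35.4% higher, against 52.4% of the members (33.3% lower and 19.0% higher). Falls of at least 2-fold past the threshold were 4 of 21 among the members and 18.0% of all probe sets, and such rises were 1 of 21 and 9.96%. The groups did not overlap in 8 of 21 member probe sets, and in 45.9% of all. These shares are near the background, so the counts are not a result about the members as a set. The median change was 0.18 over the member probe sets and 0.27 over all probe sets.

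Signal level bears on all values below. Only 5 of the 21 member probe sets had a group mean of at least 6, and they gave 4 of the 7 falls and 1 of the 4 rises. In 10 of the 21 probe sets neither group mean exceeded the median of its group over all probe sets (4.22 in microvesicles and 4.10 in cells). The files carry no detection call, so values near or under that median are not known to exceed background. The change over all probe sets also depended on level: the median change was 0.58 where the 10 arrays averaged 3 or less, -0.43 between 5 and 6, -1.0 between 6 and 7 and -1.01 between 7 and 8. Called falls made up 0.958%, 45.9%, 64.8% and 69.5% of these 4 classes.

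**Figure D1:**
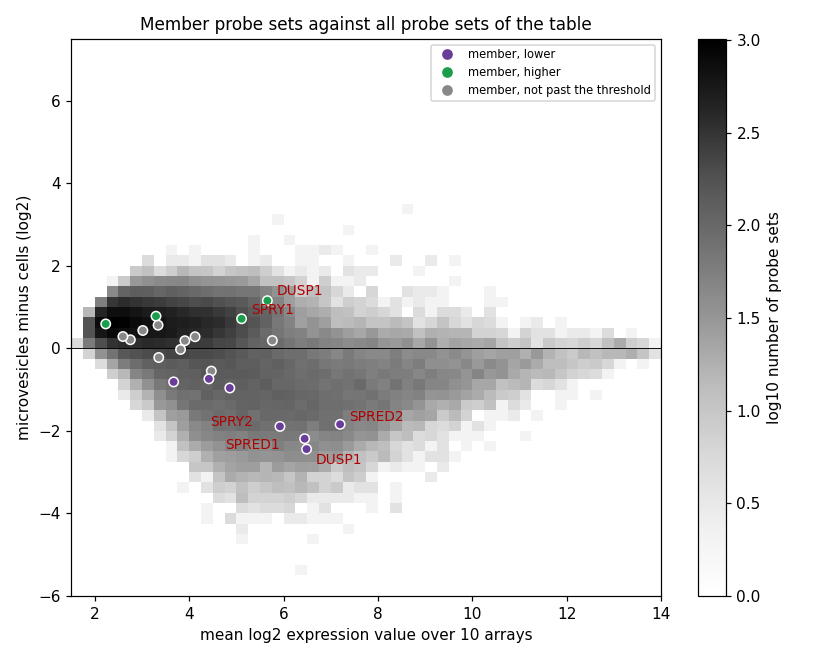
Change between microvesicles and cells (log2, vertical axis) against the mean log2 value over 10 arrays (horizontal axis). Grey squares give the number of probe sets of the whole table on a log10 colour scale, and coloured points are the 21 member probe sets, with 6 of them named. The 4 largest falls (DUSP1, SPRED1, SPRY2 and SPRED2, between -2.44 and -1.84) lie at levels where most probe sets of the table are below 0.

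Both groups showed signal for K562 identity genes. Of 11 identity genes of K562 listed (embryonic globins, erythroid factors, BCR and ABL1), 9 were measured, and all 9 lay above the group median in both groups. HBE1, an embryonic globin gene, averaged 12.09 in microvesicles and 11.72 in cells. Among markers of other cells, the mean level of the brightest probe sets was 4.91 to 5.21 over microvesicle arrays and 4.65 to 5.07 over cell arrays for 7 lymphocyte genes, 4.43 to 4.69 and 3.92 to 4.07 for 6 platelet genes, and 4.39 to 5.01 and 3.93 to 4.25 for 7 fibroblast and endothelial genes. In microvesicles 5 of the 7 lymphocyte, 4 of the 6 platelet and 4 of the 7 fibroblast and endothelial genes exceeded the group median. In cells the counts were 4, 3 and 3. The lymphocyte gene CD3D averaged 8.01 in microvesicles and 8.18 in cells. A level above the median therefore does not by itself tell cell types apart. The part of RNA from other cells in the members' values was not tested. ACTB control probe sets at the 3' end exceeded those at the 5' end, a gauge of RNA integrity, by amounts that ran from 2.72 to 3.64 in microvesicles and from 2.26 to 2.57 in cells, without overlap. The same gauge from GAPDH ran from 0.505 to 0.834 in microvesicles and from 0.370 to 0.543 in cells, with overlap. The part of RNA integrity in the changes below was not tested.

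Promoters are shown for the 4 genes whose brightest probe set fell at least 2-fold. The other probe sets of DUSP1 and SPRED2 were not called lower. Of the 10 members, 8 had an entry in the RefSeq table of gene starts (GRCh38.p14). Each line gives the 250 bases before the outermost start, 5' to 3' on the gene's strand. The windows are chr5:172771196-172771445 (minus strand) for DUSP1, chr13:80341127-80341376 (minus) for SPRY2, chr15:38252586-38252835 (plus) for SPRED1 and chr2:65432600-65432849 (minus) for SPRED2. Capitals mark matches on either strand to TGACGTCA, the cyclic AMP response element, to its core TGACG, or to CCGGAA, a core bound by ETS factors.
DUSP1: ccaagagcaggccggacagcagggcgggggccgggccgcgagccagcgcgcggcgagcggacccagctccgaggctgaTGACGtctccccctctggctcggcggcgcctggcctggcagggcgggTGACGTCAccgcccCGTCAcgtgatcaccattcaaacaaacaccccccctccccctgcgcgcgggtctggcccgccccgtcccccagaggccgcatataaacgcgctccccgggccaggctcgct
SPRY2: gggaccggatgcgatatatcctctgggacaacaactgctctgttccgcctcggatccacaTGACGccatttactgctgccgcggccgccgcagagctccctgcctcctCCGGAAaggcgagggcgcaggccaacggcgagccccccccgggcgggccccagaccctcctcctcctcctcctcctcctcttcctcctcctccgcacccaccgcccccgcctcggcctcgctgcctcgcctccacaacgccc
SPRED1: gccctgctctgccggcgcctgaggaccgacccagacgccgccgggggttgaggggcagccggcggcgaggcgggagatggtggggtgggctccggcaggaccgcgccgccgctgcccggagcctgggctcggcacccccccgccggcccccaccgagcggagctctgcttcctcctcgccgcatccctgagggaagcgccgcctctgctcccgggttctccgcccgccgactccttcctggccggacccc
SPRED2: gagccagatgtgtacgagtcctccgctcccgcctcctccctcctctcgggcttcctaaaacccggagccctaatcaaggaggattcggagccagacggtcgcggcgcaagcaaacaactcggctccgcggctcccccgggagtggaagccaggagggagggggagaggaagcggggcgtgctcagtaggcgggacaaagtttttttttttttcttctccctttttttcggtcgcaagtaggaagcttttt

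DUSP1 had 1 match to TGACGTCA and 4 to TGACG, of which a pair are the 2 strands of the longer motif. SPRY2 had 1 TGACG and 1 CCGGAA, and the windows of SPRED1 and SPRED2 held none of the 3 motifs. Among all 35116 windows of the same length, TGACGTCA occurred in 1.65%, TGACG in 21.2% and CCGGAA in 14.5%. TGACG was thus found in DUSP1 and SPRY2, and none of the 3 motifs in all 4 genes. Of the members without such a fall, NF1 had 1 TGACGTCA and 2 TGACG (its 2 strands). SPRY4 had 1 TGACG, while DUSP6 and SPRY1 had none. NF1 is placed here by the 1 probe set annotated to it alone. The brightest probe set shared with NF1P9, described below, changed by -2.14, so whether NF1 fell is not settled. The SPRY4 window, chr5:142324248-142324497 (minus), precedes the only start listed for SPRY4. That window lies inside the listed bounds of the gene, which end at position 142325021.

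The DUSP genes are described first. DUSP1 encodes an inducible nuclear phosphatase of p38, JNK and ERK. Its brightest probe set, 201041_s_at, stood at 5.41, 4.99, 5.36, 5.35 and 5.22 in microvesicles replicates 1 to 5, against 7.57, 7.40, 7.61, 8.0 and 7.96 in cells. All microvesicle values lay below all cell values, with means of 5.27 ± 0.17 and 7.71 ± 0.26 (SD, n = 5 each). The change was -2.44 ± 0.17 (SE), a 5.44-fold lower value in microvesicles (limma adjusted p = 1.99e-07).

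The second DUSP1 probe set, 226578_s_at, went the other way. It read 6.07, 5.71, 6.46, 6.44 and 6.48 in microvesicles and 5.34, 4.75, 4.91, 5.27 and 5.12 in cells. Again the groups did not overlap, but here the microvesicles were the higher ones, with a change of 1.15 ± 0.20, 2.23-fold (limma adjusted p = 0.000293). In cells the first probe set was 2.23 to 2.84 above the second on each array, while in microvesicles it was 0.66 to 1.27 below it. The difference between the probe sets changed by -3.60 between the groups (exact permutation test over the 10 arrays, 2-sided, p = 0.00794, the smallest it can give; adjusted p = 0.0159 over the 6 genes with at least 2 probe sets). The third, 201044_x_at, whose suffix marks probes that can also match other sequences, was at 3.80 ± 0.20 in microvesicles and 3.83 ± 0.15 in cells (SD, n = 5 each) and did not pass (-0.027 ± 0.16, adjusted p = 0.889). A direction for DUSP1 as a gene therefore depends on the probe set. The mean of the 3 probe sets changed by -0.44 ± 0.14 (limma adjusted p = 0.0145 over 19775 genes).

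DUSP4 encodes a nuclear phosphatase of ERK and JNK. Its 3 probe sets had means of 2.53 to 3.23 in microvesicles and 1.93 to 2.80 in cells, all under the median of the arrays. Only the dimmest, 204014_at, was called: it read 2.91, 2.21, 2.10, 2.64 and 2.77 in microvesicles and 1.98, 1.80, 1.98, 2.03 and 1.88 in cells, without overlap (0.59 ± 0.19, adjusted p = 0.0142). That call was lost in each of the 3 other scalings, with changes of 0.43 after median centring, 0.18 after a second quantile normalization and -0.012 after loess normalization by level (adjusted p = 0.0661, 0.452 and 0.966). Of the other 2, 226034_at changed by 0.43 ± 0.25 and 204015_s_at by 0.21 ± 0.21, and neither passed. The mean of the 3 DUSP4 probe sets was called higher in the deposited values (0.41 ± 0.12, limma adjusted p = 0.0091 over 19775 genes). At these values a level of DUSP4 RNA cannot be told from background in either group.

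DUSP5, a nuclear phosphatase specific for ERK, had 1 probe set with the widest spread among the members. It read 2.92, 4.65, 5.00, 5.41 and 2.98 in microvesicles and 4.66, 4.67, 4.75, 4.82 and 4.82 in cells. In microvesicles 3 preparations were close to or above the cells and 2 were well below, so the SD was 1.17 against 0.077 in cells. The change of -0.55 ± 0.42 did not pass (limma adjusted p = 0.256). It was -0.23 without microvesicles replicate 1, -0.25 without replicate 5 and -0.86 without replicate 4, none of them past the threshold.

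DUSP6, the cytoplasmic phosphatase that acts on ERK and is a common readout of ERK activity, lay near or under the array median in all 3 probe sets. The brightest, 208893_s_at, read 4.37, 3.64, 4.36, 4.62 and 4.34 in microvesicles and 3.66, 3.94, 4.02, 4.01 and 4.29 in cells. The groups overlapped and the change of 0.28 ± 0.20 did not pass (adjusted p = 0.229), although without microvesicles replicate 2 it did (0.44, adjusted p = 0.0372). The next, 208891_at, changed by -0.22 ± 0.18 and did not pass (adjusted p = 0.282), but it was lower past the threshold under loess (-0.64, adjusted p = 0.00918) and quantile normalization (-0.59, 0.0183). The third, 208892_s_at, was called higher (0.78 ± 0.32, adjusted p = 0.0482) with overlapping groups, 2.84 to 5.03 in microvesicles and 2.68 to 3.25 in cells, and a highest value from microvesicles replicate 5, without which the change was 0.44. This call did not pass after centring, quantile normalization or loess (0.62, 0.46 and 0.35), nor in 9 of the 10 fits that left out 1 array (all but that without microvesicles replicate 1, adjusted p up to 0.0971). The 2 brightest DUSP6 probe sets differed in their changes by 0.50 (exact permutation p = 0.0317, adjusted p = 0.0381), a result lost in 7 of 10 leave-outs (adjusted p up to 0.0857): those without microvesicles replicates 1, 3, 4 or 5 or cells replicates 1, 2 or 5.

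**Figure D2:**
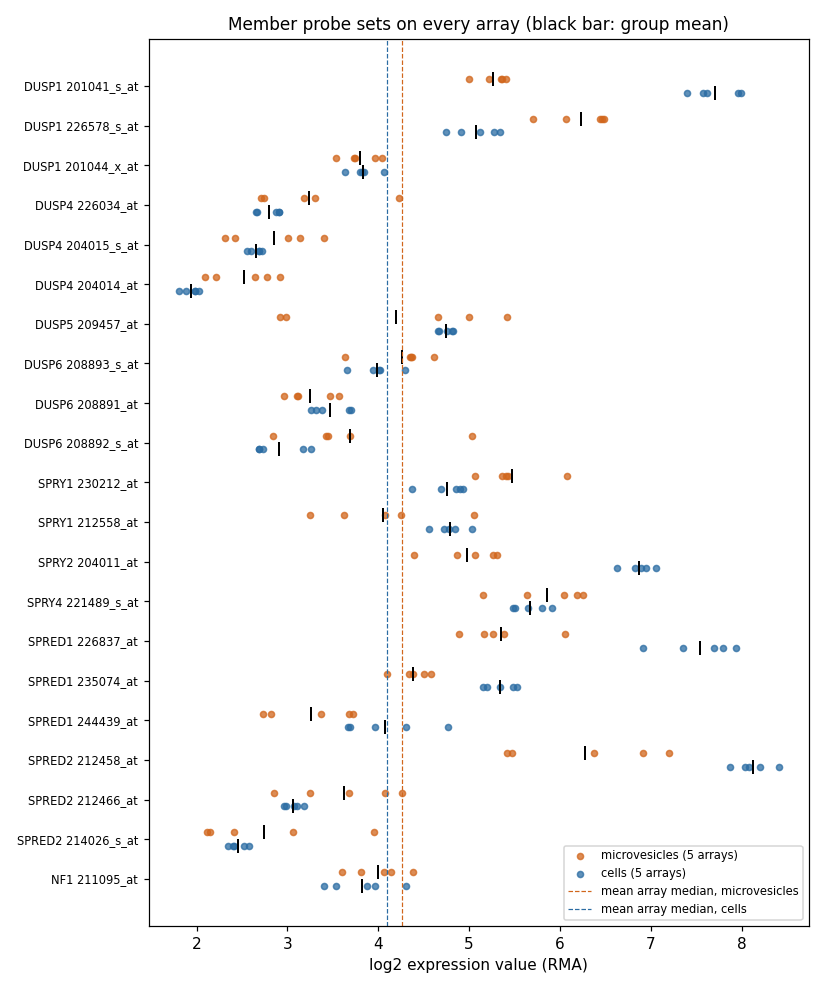
Log2 expression values (horizontal axis) of the 21 member probe sets on each microvesicle array (orange, upper row of each probe set) and each cell array (blue, lower row), with group means as black bars and the mean array medians as dashed lines. The groups do not overlap in 8 probe sets: microvesicles are lower for DUSP1 201041_s_at, SPRY2, SPRED1 226837_at and 235074_at and SPRED2 212458_at, and higher for DUSP1 226578_s_at, DUSP4 204014_at and SPRY1 230212_at. Most of the other probe sets lie near or left of the dashed lines.

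Sprouty genes gave 1 clear fall. SPRY2, an inducible inhibitor of receptor tyrosine kinase signalling, had 1 probe set. It read 5.06, 5.31, 4.39, 5.26 and 4.87 in microvesicles, against 6.89, 6.94, 6.83, 7.06 and 6.62 in cells. Every microvesicle value was below every cell value, with means of 4.98 ± 0.37 and 6.87 ± 0.16 (SD, n = 5 each). SPRY2 was 3.71-fold lower in microvesicles (-1.89 ± 0.19 SE, limma adjusted p = 4.26e-06).

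SPRY1, another member of the family, had 2 probe sets that were called in opposite directions. In 230212_at the values were 5.41, 6.07, 5.07, 5.43 and 5.36 in microvesicles and 4.90, 4.38, 4.69, 4.86 and 4.93 in cells, a rise of 0.72 ± 0.20 without overlap (adjusted p = 0.00789). In 212558_at they were 3.62, 3.24, 4.07, 4.25 and 5.05 in microvesicles and 4.56, 4.77, 4.85, 5.04 and 4.72 in cells. Here microvesicles replicate 5 reached the cells and the other 4 lay below them (-0.74 ± 0.28, adjusted p = 0.0319). The fall was lost without microvesicles replicates 1 or 2 or cells replicates 2, 3, 4 or 5 (adjusted p up to 0.0769) and after quantile normalization (-0.79, adjusted p = 0.0801). The changes of the 2 probe sets differed by 1.46 (exact permutation p = 0.0159, adjusted p = 0.0238), and their mean changed by -0.011 ± 0.15 (limma adjusted p = 0.948).

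SPRY4, which blocks RAS activation downstream of growth factor receptors, was measured by 1 probe set above the array median in both groups. It read 5.15, 5.64, 6.19, 6.04 and 6.26 in microvesicles and 5.91, 5.51, 5.48, 5.65 and 5.80 in cells. In microvesicles 3 preparations were above all cells and 1 was below them, and the change of 0.19 ± 0.22 did not pass (limma adjusted p = 0.454). Loess gave 0.62 (adjusted p = 0.0376) and quantile normalization gave 0.72 (0.0407), both higher past the threshold. The change was above 0 in each of these scalings and after centring (0.029), and whether it passed depended on the scaling.

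SPRED1 was lower in microvesicles in each of its 3 probe sets. It encodes the adaptor that carries neurofibromin to RAS at the membrane. The brightest, 226837_at, read 4.89, 5.38, 5.17, 6.06 and 5.27 in microvesicles, against 7.69, 7.94, 7.80, 6.92 and 7.35 in cells. Replicate 4 was the highest of the microvesicle arrays and the lowest of the cell arrays, and the groups still did not overlap. The change was -2.19 ± 0.25, 4.56-fold lower (limma adjusted p = 8.53e-06).

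The other SPRED1 probe sets changed by less. For 235074_at the values were 4.10, 4.57, 4.38, 4.50 and 4.34 in microvesicles and 5.34, 5.48, 5.53, 5.20 and 5.16 in cells, without overlap (-0.96 ± 0.16, adjusted p = 0.000243). For 244439_at the groups overlapped, with 2.73 to 3.72 in microvesicles and 3.66 to 4.76 in cells (-0.81 ± 0.26, adjusted p = 0.016). The changes of the 2 brighter probe sets differed by -1.23 (exact permutation p = 0.00794, adjusted p = 0.0159). All 3 falls kept their side of the threshold after centring, quantile normalization and loess, and in each of the 10 fits without 1 array. The mean over the probe sets changed by -1.32 ± 0.17 (limma adjusted p = 3.59e-05).

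SPRED2 encodes the close relative of SPRED1. Its brightest probe set, 212458_at, read 7.20, 5.42, 6.37, 6.91 and 5.47 in microvesicles, against 8.41, 8.21, 8.08, 8.04 and 7.87 in cells. All 5 microvesicle values were below all cell values but spread more widely, with an SD of 0.81 against 0.20 in cells. The change was -1.84 ± 0.32, 3.59-fold lower (limma adjusted p = 0.000283). The other 2 probe sets were dim and not called: 212466_at had means of 3.62 in microvesicles and 3.06 in cells (0.56 ± 0.24, adjusted p = 0.0569), and 214026_s_at had 2.74 and 2.45 (0.29 ± 0.30). The first of these was called higher without microvesicles replicate 1 (0.75, adjusted p = 0.00715) or 4 (0.65, 0.0378). The bright probe set and 212466_at differed in their changes by -2.40 (exact permutation p = 0.00794, adjusted p = 0.0159), and the mean over the 3 changed by -0.33 ± 0.13 (limma adjusted p = 0.0367).

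NF1, the RAS GTPase activating protein mutated in neurofibromatosis, was represented by 1 probe set annotated to it alone. This probe set, 211095_at, read 3.81, 4.14, 4.06, 3.60 and 4.38 in microvesicles and 3.88, 3.96, 4.30, 3.40 and 3.54 in cells. The groups overlapped near the array median and the change of 0.18 ± 0.21 did not pass (limma adjusted p = 0.447). Of the 9 probe sets annotated to NF1 together with NF1P9, 7 were lower in microvesicles and 2 were not called. The brightest of them, 212676_at, stood at 4.92, 6.34, 6.27, 5.85 and 4.97 in microvesicles, against 7.81, 7.76, 7.72, 7.90 and 7.84 in cells, without overlap. It changed by -2.14 ± 0.27 (adjusted p = 2.51e-05; -1.39 after quantile normalization), and the 7 called ones by -2.14 to -0.60. Of these 7, 204325_s_at (-0.60) lost its call in 6 of 10 leave-outs (without microvesicles replicates 3 or 4 or cells replicates 1, 2, 3 or 5, adjusted p up to 0.0714) and 243476_at (-0.85) without microvesicles replicates 2 or 3 (0.0523 and 0.0543). The 2 not called, 211914_x_at (0.38 ± 0.21) and 204323_x_at (-0.0038 ± 0.24), both carry the suffix for probes that can match other sequences. The first was called higher without microvesicles replicate 5 (0.56, adjusted p = 0.0126). Counted with the members, the 9 would bring the falls to 14 of 30 probe sets and leave the rises at 4. Whether these values come from NF1 or from its pseudogene cannot be told apart.

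**Figure D3:**
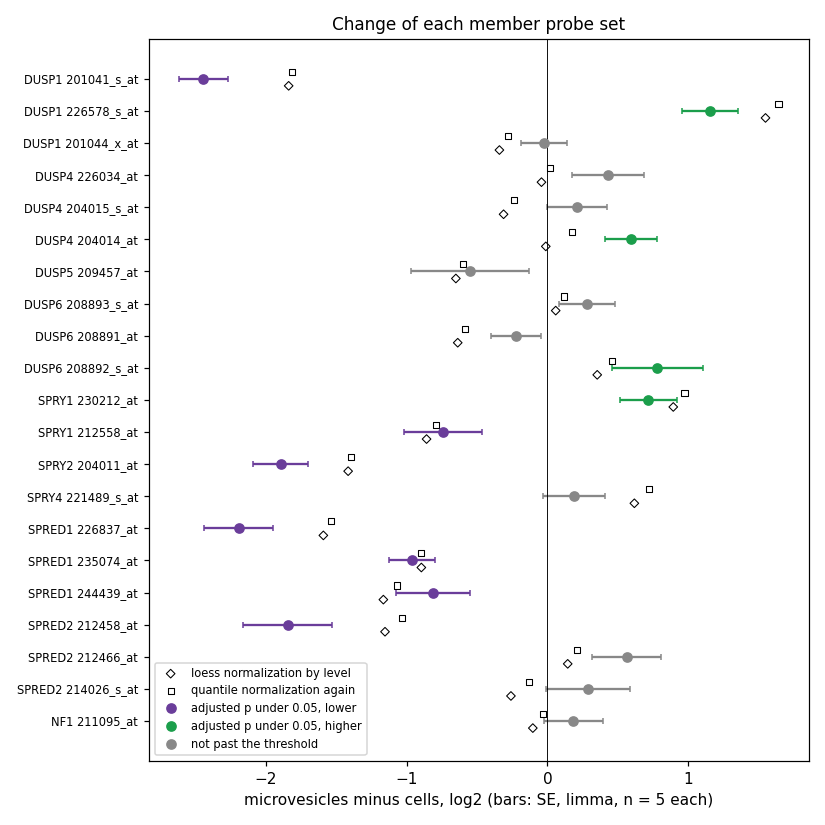
Change of each member probe set, microvesicles minus cells on the log2 scale (horizontal axis), with the standard error from limma (5 arrays per group). Circles are purple where lower and green where higher past the threshold, and grey otherwise. Open diamonds give the change after loess normalization by level and open squares that after a second quantile normalization. SPRED1 is left of 0 in all 3 probe sets under each of these scalings, while DUSP1 and SPRY1 have called probe sets on both sides of 0.

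The size of the largest falls also depended on the scaling, while their calls did not. After loess by level DUSP1 201041_s_at stood at -1.84, SPRED1 226837_at at -1.59, SPRY2 at -1.41 and SPRED2 212458_at at -1.15, while quantile normalization repeated on the table gave -1.82, -1.53, -1.39 and -1.03 in the same order. All 4 passed under both. In the deposited values these 4 changes lay at percentiles 2.56, 3.91, 6.15 and 6.59 of all probe sets, and the rise of DUSP1 226578_s_at (1.55 after loess) at percentile 94.3. These percentiles are over all levels and are not ranks among probe sets of like level. The median change was -0.43 at the level of SPRY2 (5 to 6), where 45.9% were called lower. It was -1.0 at that of DUSP1 and SPRED1 (6 to 7, 64.8%) and -1.01 at that of SPRED2 (7 to 8, 69.5%).

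Microvesicle preparations varied more than cells. The SD was larger in microvesicles in 19 of the 21 member probe sets, with a median of 0.44 against 0.19 in cells. Over all probe sets the medians were 0.46 and 0.15. The exceptions were DUSP1 201041_s_at (0.17 and 0.26) and NF1 211095_at (0.30 and 0.36).

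**Figure D4:**
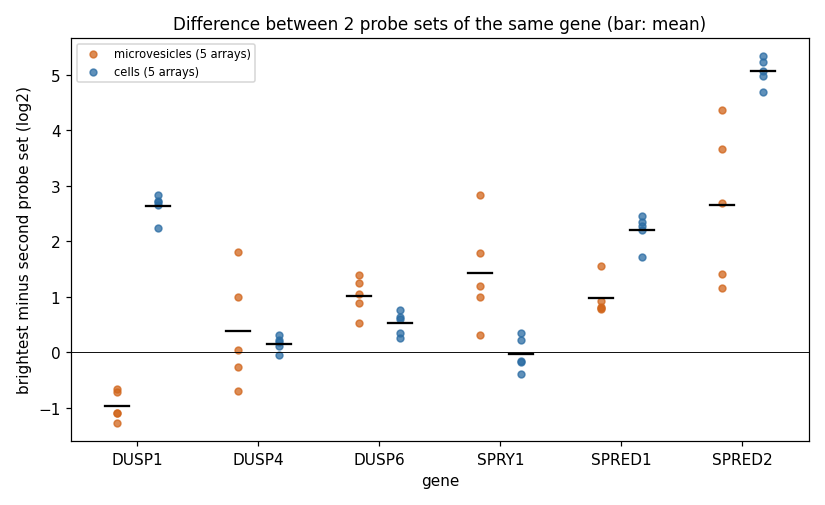
Difference between the brightest and the second brightest probe set of the same gene (log2, vertical axis) on each array, for the 6 member genes with at least 2 probe sets, microvesicles in orange and cells in blue, with group means as bars. The difference is positive on every cell array and negative on every microvesicle array for DUSP1, and it is smaller in microvesicles for SPRED1 and SPRED2.

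For SPRED2 and DUSP1, whose probe sets had the highest means among the members, the most similar profiles were sought among 19765 other genes, by the root mean square difference over the 10 arrays after the mean of the cells had been subtracted. For SPRED2 these were PREPL (0.17), PPP4R3B (0.21) and LARP4 (0.22), with changes of -1.82, -1.73 and -1.88. For DUSP1 201041_s_at they were UBR2 (0.18), PACC1 (0.19) and TTI1 (0.20), with changes of -2.43, -2.37 and -2.32. The median distance over all genes compared was 1.57 for SPRED2 and 1.90 for DUSP1.

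The route that the members restrain showed changes in both directions, and the named genes below passed the threshold unless stated. Of 22 genes listed for the cascade from receptor adaptors to ERK, 16 were measured here with 50 probe sets, of which 18 were lower, 8 higher and 24 not called (median -0.14). The other 6 were not analysed here. The brightest of 6 probe sets of SOS2, a RAS activator, changed by -2.53 ± 0.27, while 2 others were called higher (0.93 ± 0.21 and 0.57 ± 0.18) and 3 were not called. MAP2K1, which encodes the kinase MEK1, changed by -1.50 ± 0.23 (-0.76 after loess). GAB2, a docking protein that couples BCR-ABL1 to RAS, rose by 0.86 ± 0.22 (1.60 after loess). MAPK3, which encodes ERK1, was at 6.62 ± 0.32 in microvesicles and 6.58 ± 0.080 in cells (SD, n = 5 each) and did not pass (0.039 ± 0.18). After loess and after quantile normalization MAPK3 was called higher (0.66 and 0.86, adjusted p = 0.00753 and 0.0024).

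Kinases activated by ERK and the genes that it induces were likewise mixed. The 7 effector kinase genes had 16 probe sets, 6 lower and 7 higher (median 0.17). The brightest probe set of RPS6KA3 changed by -2.50 ± 0.44 and its other one by -2.12 ± 0.25. For RPS6KA5 the 3 probe sets differed, with the brightest at -2.03 ± 0.21, 1 not called (-1.07 ± 0.46) and 1 called higher (0.67 ± 0.19). RPS6KA4 changed by 1.90 ± 0.16 and MKNK2 by 0.94 ± 0.22 (1.64 after loess), and the second probe set of each was called higher too. All 18 nuclear target genes were measured, with 47 probe sets, 13 lower and 8 higher (median -0.036). The early growth response factor EGR1 stood at 5.89 ± 0.42 in microvesicles and 10.25 ± 0.38 in cells (SD, n = 5 each), a change of -4.35 ± 0.24 (adjusted p = 2.82e-08). FOS, another early factor, changed by -2.33 ± 0.41. The 2 largest rises called in the brightest probe sets of these genes were those of PHLDA1 (0.86 ± 0.25) and the ETS factor ETV4 (0.71 ± 0.20, and 1.41 after quantile normalization). The other ETV4 probe set went the other way and was not called (-0.32 ± 0.19). The second brightest of PHLDA1 was not called (-0.078 ± 0.21). A further PHLDA1 probe set was called higher (0.53 ± 0.20), and the rest were not called.

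Relatives of the members that act at the same steps differed in direction too. Of 19 probe sets for 9 other MAP kinase phosphatase genes, 8 were lower and 3 higher (median -0.11). DUSP10, a phosphatase of p38 and JNK, changed by -1.82 ± 0.43 (-1.25 and no longer called after quantile normalization, adjusted p = 0.0851), and PTPRR by -0.99 ± 0.18. DUSP2 rose by 1.08 ± 0.16, and the brightest probe set of DUSP8 by 0.78 ± 0.22 with overlapping groups. That DUSP8 probe set carries the suffix for probes that can match other sequences. The other DUSP8 probe set was dimmer and not called (0.0013 ± 0.19, adjusted p = 0.995). Among other RAS GTPase activating protein genes, 5 of 8 were measured with 17 probe sets, 2 lower and 10 higher (median 0.66), with RASA2 at -2.40 ± 0.32, RASAL3 at 1.37 ± 0.26 and RASAL2 at 1.24 ± 0.21. Of 21 probe sets for 10 Sprouty and SPRED relatives or partners 2 were lower and 9 higher (median 0.40). SPRED3, the third SPRED gene, was at 7.08 ± 0.22 in microvesicles and 5.40 ± 0.14 in cells (SD, n = 5 each), a rise of 1.68 ± 0.16 (adjusted p = 2.69e-06), and TESK1, a kinase bound by SPRED and Sprouty proteins, rose by 0.94 ± 0.20 (1.55 after quantile normalization). The kinase gene DYRK1A had probe sets called in both directions: of 5, 3 were higher (0.53 to 1.01) and 1, the brightest, was lower (-0.45 ± 0.15). That fall stood at 0.28 after loess and 0.19 after quantile normalization, and it did not pass without cells replicates 1 or 3 (adjusted p = 0.0615 and 0.0515). The medians of all these lists are to be read beside the 0.27 of all probe sets and the background shares above.

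**Figure D5:**
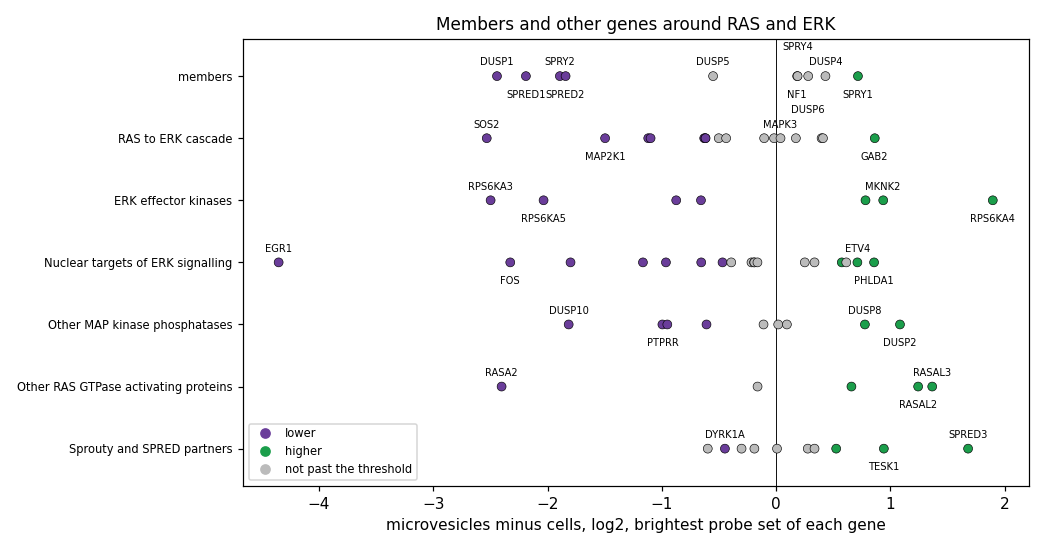
Change (microvesicles minus cells, log2, horizontal axis) of the brightest probe set of each gene, for the 10 members and 6 lists of genes around RAS and ERK, 1 row per list. Points are purple where lower and green where higher past the threshold, and grey otherwise, and the members and the genes chosen by rule are named. Each row holds genes on both sides of 0.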

How the data were processed

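The authors deposited log2 values for each probe set on 10 arrays (5 microvesicles, 5 cells), obtained with RMA per the submitters' processing notes. Its version is not given in the sources used here. The table holds 54630 rows. The 17 control probe sets were left out of the tests, which left 54613. Of these, 41091 are annotated with 1 gene, 1801 with several and 11721 with none listed. For lists, symbols were updated through the gene number in the RefSeq table (41037 matched).

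Microvesicles were compared with cells by limma 3.58.1 in R 4.3.3 (lmFit, eBayes), with a mean for each group and 2-sided p-values adjusted by Benjamini-Hochberg across the 54613 probe sets. Dim probe sets were kept. The procedure was also run on simulated data with the same spread in both groups. The real groups differ in spread, so that run does not check the p-values given here. Changes are microvesicles minus cells, ± SE. Differences between probe sets of a gene were tested over the 252 assignments of arrays. Members and lists were chosen with earlier results of these data known. From each list the text names up to 2 rises and 2 falls past the threshold by brightest probe set, with EGR1, MAPK3 and DUSP10 always named; genes without a probe set are not analysed here. Alternatives were the replicate number as a block, 3 other scalings, a filter on dim probe sets, a variance trend, gene-level summaries and leaving out each array. For arrays, their number limits the precision.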

Additional observations from a re-analysis of the deposited data

Results flagged for a closer look

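Values within a group of 5 arrays were screened for 1 array far from the others by Dixon's ratio, the gap to the nearest array divided by the range, with a critical value of 0.71. Of 104 groups (52 probe sets named in the text or annotated to NF1 and NF1P9), 5 exceeded it, and chance flags about 1 in 20. DUSP6 208893_s_at was 3.64 in microvesicles replicate 2, against 4.34 to 4.62 in the other microvesicle arrays (ratio 0.721). MAP2K1 was low in the same preparation, at 6.74 against 7.77 to 8.15 (0.728). In cells, FOS was 6.81 in replicate 5 against 5.80 to 5.93 (0.870), MKNK2 was 10.19 in replicate 4 against 9.87 to 9.96 (0.728), and the NF1 or NF1P9 probe set 211914_x_at was 4.67 in replicate 5 against 4.87 to 4.94 (0.745).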

How the results depend on the processing

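The counts over all probe sets and over the members moved most for rises. Rises over all probe sets numbered 19318 (14758 falls) in the deposited values, 13032 (16492) with arrays centred on their median, 10282 (10111) after a second quantile normalization, 10582 (12110) after loess and 1575 (10224) among the 15230 probe sets with a group mean of at least 6. The median change over all probe sets, 0.27 as deposited, was 0.11 after centring, 0.12 after quantile normalization and 0.030 after loess. Member falls numbered 7 as deposited, 4 with the filter on level and 14 with the NF1 and NF1P9 probe sets, a count chosen after seeing the data. Member rises numbered 4 as deposited, 2 after centring and 1 with the filter, which leaves 5 member probe sets. With the replicate number as a block (replicate block) the members kept counts of 7 and 4, and over all probe sets 18708 were higher and 14606 lower. Deviations of same-numbered arrays correlated at -0.025 to 0.11, and 3 of 5 microvesicle arrays correlated best with the cells of their number. The block changed no member call, but the DYRK1A fall did not pass with it (adjusted p = 0.0516). Changes of sign occurred in results that were not called, apart from DUSP4 204014_at, DYRK1A and SPRY1 230212_at. After loess DUSP4 204014_at stood at -0.012, DUSP4 204015_s_at at -0.31, DUSP4 226034_at at -0.042, NF1 at -0.10, SPRED2 214026_s_at at -0.26 and DYRK1A at 0.28. After quantile normalization DUSP4 204015_s_at stood at -0.24, NF1 at -0.034, SPRED2 214026_s_at at -0.13 and DYRK1A at 0.19. MAPK3 was at -0.12 after centring, and the mean of the SPRY1 probe sets at -0.011. With 1 array left out, DUSP1 201044_x_at ranged from -0.087 to 0.040, SPRED2 214026_s_at from -0.017 to 0.44, MAPK3 from -0.057 to 0.12, the probe set 204323_x_at from -0.23 to 0.12 and the DUSP4 probe set difference from -0.13 to 0.49. The cause of these moves was not tested. Without detection calls, low values cannot be told from background.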
